A study of Mus musculus with 14 samples.

Results

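The CPEB and FMRP family translation regulators are RNA-binding proteins that decide when an mRNA is translated. CPEB proteins bind the cytoplasmic polyadenylation element, a U-rich motif in 3′ UTRs, and lengthen or shorten the poly(A) tail of the mRNAs they hold. FMRP, the protein lost in fragile X syndrome, and its paralogs FXR1 and FXR2 mostly hold back translation of neuronal mRNAs, and Pumilio proteins repress mRNAs with a UGUA motif and recruit a deadenylase. In cortical neurons these proteins act in dendrites, where synaptic activity changes which mRNAs are translated.

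The genes described were Cpeb1, Cpeb2, Cpeb3, Cpeb4, Fmr1, Fxr1, Fxr2 and Pum2, which are 8 of the 24444 genes of each deposited table, and all 8 passed the filter on low values in both tables. They were chosen from the measured mutant and wild-type values of these same tables, so every difference of these 8 genes between mutant and wild-type cortex is given as a description, with no test. RNA was sequenced from whole cortex of mice in 2 models. In the first, cortex of 3 miR29Nestin mice was set against cortex of 3 miR29WT mice, all at postnatal day 40. The miR29Nestin mice carried floxed alleles of both genomic clusters of miR-29 (miR-29ab1 and miR-29b2c) and the Nestin-Cre recombinase, which is active in neural progenitors, so cells of other origin, such as microglia and endothelium, were not its main target. In the second, cortex of 4 Dnmt3a-mi5 mice was set against cortex of 4 Dnmt3a-WT mice, all at 4.5 months. The Dnmt3a-mi5 allele is a CRISPR knock-in in which all 5 miR-29 sites of the Dnmt3a 3′ UTR were mutated from TGGTGCT to CACGGCT, so miR-29 itself was intact. Whether the wild-type mice were floxed or carried Cre, and how many founders the knock-in line had, were not given in the sources used here.

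The sequences of miR-29 show what was removed in the miR29Nestin mice, and are given from RefSeq (GRCm38.p6) with the seed, bases 2 to 8, in capitals. miR-29a lies on chromosome 6, miR-29c on chromosome 1, and miR-29b has a copy on each.

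mmu-miR-29a-3p: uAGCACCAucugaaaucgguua
mmu-miR-29b-3p: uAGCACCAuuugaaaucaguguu
mmu-miR-29c-3p: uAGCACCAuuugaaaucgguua

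All 3 share the seed AGCACCA, whose match in an mRNA is TGGTGCT. The longest annotated 3′ UTR of each gene (GENCODE M21, GRCm38) was searched on its own strand for this match, counting overlapping matches. Of the 8 genes, Cpeb3 held it, at 2 places, and the other 7 genes held 0. At least 1 match was present in 14.5% of the 20132 genes with an annotated 3′ UTR, and in 30.2% of genes with a 3′ UTR as long as that of Cpeb3 within 25%. Both Cpeb3 windows and the last 2 of the 5 Dnmt3a sites, which are the sites mutated in the Dnmt3a-mi5 mice, are shown with the match in capitals. An eighth capital, A, marks a match that is longer by 1 base.

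Cpeb3 3′ UTR base 1319, chr19:37023524-37023552, minus strand: aggacctctccTGGTGCTtgcaccacttc
Cpeb3 3′ UTR base 2559, chr19:37022284-37022312, minus strand: gagactccactTGGTGCTgagggctgtga
Dnmt3a 3′ UTR base 3658, chr12:3911394-3911423, plus strand: ggggaggtagcTGGTGCTAgcaccagggtc
Dnmt3a 3′ UTR base 3727, chr12:3911463-3911492, plus strand: gggtcccaagcTGGTGCTAattcctctcat

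The 3′ UTRs were also searched for the motifs that the proteins of these families bind. The cytoplasmic polyadenylation element, searched as TTTTAT or TTTTAAT, occurred 24 times in the Cpeb2 3′ UTR of 3778 bases and 17 times in the Cpeb4 3′ UTR of 4102 bases. Genes with a 3′ UTR of like length had a median of 4 in both cases. For Cpeb2, 1 of 2447 other genes of like length had as many, and for Cpeb4 it was 9 of 2164. These 2 UTRs were A and T rich, at 66.6% for Cpeb2 and 65.7% for Cpeb4, against a median of 57.2% for genes of like length. The element occurred 10 times in Pum2, 6 times in Cpeb3, 4 times in Cpeb1 and in Fmr1, 3 times in Fxr1 and 0 times in the short Fxr2 3′ UTR of 598 bases, and 58.0% of all genes had at least 1. The Pumilio motif TGTANATA, present in 23.8% of all genes, occurred 2 times each in Fmr1 and Pum2, 1 time each in Cpeb1, Cpeb2 and Cpeb3, and 0 times in Cpeb4, Fxr1 and Fxr2. Of genes with a 3′ UTR of like length, 23.0% held at least 1 for Cpeb1, 47.4% for Cpeb2 and 46.0% for Cpeb3. It was 34.4% for Fmr1 and 63.0% for Pum2, and at least 2 were held by 9.8% for Fmr1 and 32.1% for Pum2. The longest annotated 3′ UTR had 5886 bases in Pum2 and 1978 in Fxr1, where the longest transcripts had 6311 and 3014. Little length is left for coding sequence, so these 2 may include bases that other isoforms translate. Motif counts of Pum2 and Fxr1 may therefore not describe 3′ UTR alone. Fmr1 and Pum2 were lower in the Dnmt3a-mi5 mice, and so was Cpeb4 with 0 matches, and a link to the motif was not tested. The matches in Fmr1 and in Pum2 itself are shown with the motif in capitals.

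Fmr1 3′ UTR base 1624, chrX:68717288-68717317, plus strand: gtttaaaatacTGTAGATAattaaccaagg
Fmr1 3′ UTR base 1685, chrX:68717349-68717378, plus strand: gcaatattctcTGTACATAttagcgacaac
Pum2 3′ UTR base 3494, chr12:8750154-8750183, plus strand: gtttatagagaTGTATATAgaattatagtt
Pum2 3′ UTR base 3747, chr12:8750407-8750436, plus strand: atgtacagaatTGTATATActtataattgt

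Values are given as normalised read counts, obtained by inverting the authors' variance-stabilised log2 values within each table, and differences and their standard errors (SE) are on the deposited log2 scale, mutant minus wild type. That scale understates the change of genes with few reads, so ratios of mean counts are given beside it. The miR29 libraries held 11.8 to 13.05 M reads in miR29Nestin and 9.22 to 14.45 M reads in miR29WT, and the depth of the Dnmt3a libraries is unknown. Dnmt3a, the gene that checks the labels, averaged 5529 counts in miR29Nestin and 1662 in miR29WT, and 2079.5 in Dnmt3a-mi5 and 1145 in Dnmt3a-WT, with no overlap in either model. By Y-linked genes 1 of 3 miR29Nestin mice and 2 of 3 miR29WT mice were male. Sex was not assigned in the Dnmt3a model, where an additive effect had been removed from the deposited values. What that effect was is not given in the sources used here. The neuronal markers Snap25, Rbfox3 and Syt1 were abundant in every library, and the liver gene Alb was at or near 0. The summed counts of 6 neuronal markers were 86330.1 to 88303 in miR29Nestin and 89935 to 96514 in miR29WT, with 3 of the 6 lower and 1 higher by limma at an adjusted p under 0.05. Those of 2 oligodendrocyte precursor markers were 991 to 1119 in miR29Nestin and 757 to 913 in miR29WT. Those of 5 astrocyte markers were 13235 to 13605 in miR29Nestin and 12314 to 13049 in miR29WT, with Gfap and Gja1 higher and Slc1a3 lower by the same test. In the second model the neuronal sum was 72834 to 80618 in Dnmt3a-mi5 and 73199.6 to 80873 in Dnmt3a-WT. There the sum of 4 microglial markers was 1370.4 to 1585 in Dnmt3a-mi5 and 1684 to 1769 in Dnmt3a-WT. Of these markers Cx3cr1 and P2ry12 were lower without overlap, while C1qa and Tmem119 overlapped between groups. The sum of 3 endothelial markers was 598 to 745 in Dnmt3a-mi5 and 476 to 596 in Dnmt3a-WT. Of these Flt1 was higher without overlap, while Cldn5 and Pecam1 overlapped. The part of these shifts in the values below was not tested, and in whole tissue fewer cells of a type and less RNA per cell cannot be told apart.

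Cpeb4, a CPEB protein studied for its part in neuronal survival and in autism, had the largest difference of the 8 genes in the Dnmt3a-mi5 mice. It had 1366, 1274, 1417 and 1319.8 counts in the Dnmt3a-mi5 libraries, against 1872, 1708, 1768 and 1689 in the Dnmt3a-WT libraries. All 4 mutant values lay below all 4 wild-type values. The means were 1344 ± 61.3 in Dnmt3a-mi5 and 1759 ± 82.4 in Dnmt3a-WT (SD, n = 4 each), a ratio of 0.76 and a log2 difference of -0.32 (SE 0.04). Of the 10670 genes tested in that table, 15 had a lower difference. The difference was -0.36 within the libraries of set 1 and -0.27 within those of set 2, the 2 sets between which an additive effect had been removed from the table before deposit. In the miR29 model Cpeb4 had 624, 905 and 962 counts in miR29Nestin libraries 1 to 3, against 954, 1037 and 995 in miR29WT libraries 1 to 3. The groups overlapped, because miR29Nestin library 3 stood above miR29WT library 1. The ratio of means was 0.83 and the log2 difference -0.24 (SE 0.11), with miR29Nestin library 1 far below the other 5.

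Cpeb2, whose 3′ UTR held the most CPE matches, is a close relative of Cpeb4 and slows translation elongation. It had 368, 481 and 575 counts in miR29Nestin libraries 1 to 3, against 534, 560.5 and 614 in miR29WT. The same library was the lowest and the groups overlapped, with a log2 difference of -0.21 (SE 0.10). In the second model it had 867, 831, 866 and 778 counts in Dnmt3a-mi5 and 945, 811, 898 and 912 in Dnmt3a-WT, with overlap and a log2 difference of -0.07 (SE 0.04). Cpeb3, which restrains translation of synaptic mRNAs including that of the AMPA receptor subunit Gria2, was the gene with miR-29 matches. It had 397, 523 and 696 counts in miR29Nestin and 517, 609 and 618 in miR29WT. The mutant libraries spread on both sides of all 3 wild-type libraries, with a log2 difference of -0.10 (SE 0.13). In the second model its counts were 882 to 936 in Dnmt3a-mi5 and 880.4 to 927 in Dnmt3a-WT, a log2 difference of 0.01 (SE 0.03). Neither table showed Cpeb3 higher in mutant cortex beyond the spread of its libraries. Cpeb1, the founding member, which recruits the poly(A) polymerase, had 858, 917 and 782 counts in miR29Nestin and 802, 775 and 751 in miR29WT. The groups overlapped by 1 mutant library, with a log2 difference of 0.11 (SE 0.06). In the second model Cpeb1 had 619.9 to 685 counts in Dnmt3a-mi5 and 596 to 677 in Dnmt3a-WT, a log2 difference of 0.02 (SE 0.04).

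Fmr1, on chromosome X, encodes FMRP and was the only one of the 8 genes whose groups were apart in both models. It had 216, 371 and 342 counts in miR29Nestin libraries 1 to 3, against 463, 427 and 407 in miR29WT. All 3 mutant values were below all 3 wild-type values, and library 1 was again the lowest. The means were 309 ± 82.7 in miR29Nestin and 432 ± 28.3 in miR29WT (SD, n = 3 each), a ratio of 0.72 and a log2 difference of -0.35 (SE 0.11). In the second model it had 729.7, 774, 813 and 745 counts in Dnmt3a-mi5, against 912, 878, 845 and 885 in Dnmt3a-WT. Again no mutant library reached a wild-type one. The means were 766 ± 36.7 in Dnmt3a-mi5 and 880.3 ± 27.7 in Dnmt3a-WT (SD, n = 4 each), a ratio of 0.87 and a log2 difference of -0.14 (SE 0.04). Within set 1 it was -0.18 and within set 2 it was -0.11.

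Fxr2, an FMRP paralog, was the only one of the 8 genes whose Dnmt3a-mi5 values all lay above the Dnmt3a-WT values. It had 1523, 1579.6, 1511 and 1527 counts in Dnmt3a-mi5, against 1394, 1387, 1391 and 1449.6 in Dnmt3a-WT. The groups did not overlap, with a ratio of means of 1.09 and a log2 difference of 0.10 (SE 0.03), 0.13 in set 1 and 0.08 in set 2. In the miR29 model Fxr2 had 1579.7, 1697 and 1569.9 counts in miR29Nestin and 1559, 1773 and 1566 in miR29WT, with overlap and a log2 difference of -0.01 (SE 0.06). Fxr1, the other paralog, which is also needed in muscle, overlapped between groups in both models. Its counts were 589 to 685 in miR29Nestin and 612 to 665 in miR29WT, with a log2 difference of -0.04 (SE 0.06). They were 476 to 550.3 in Dnmt3a-mi5 and 469 to 599 in Dnmt3a-WT, with a log2 difference of -0.04 (SE 0.05). Fxr1 shares 178 exonic bases with the antisense gene Dnajc19, and Cpeb2 and Cpeb3 share 137 and 116 with Gm7854 and A330032B11Rik. Fmr1 shares 72 with Gm27838 on its own strand. Whether the counting used strand is not given in the sources used here, so the values of these 4 genes could include reads of the overlapping genes.

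Pum2, a Pumilio repressor that limits dendritic translation and neuronal excitability, had 1751, 2015 and 2309 counts in miR29Nestin libraries 1 to 3, against 2192, 2239.6 and 2337 in miR29WT. The highest mutant library lay among the wild-type ones, so the groups overlapped, with a log2 difference of -0.15 (SE 0.08). In the second model it had 2485, 2472, 2612 and 2439 counts in Dnmt3a-mi5, against 2786, 2704, 2767 and 2626 in Dnmt3a-WT. These groups did not overlap, though Dnmt3a-mi5 library 3 at 2612 came close to Dnmt3a-WT library 4 at 2626. The ratio of means was 0.92 and the log2 difference -0.11 (SE 0.04), -0.13 in set 1 and -0.08 in set 2.

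**Figure D1:**
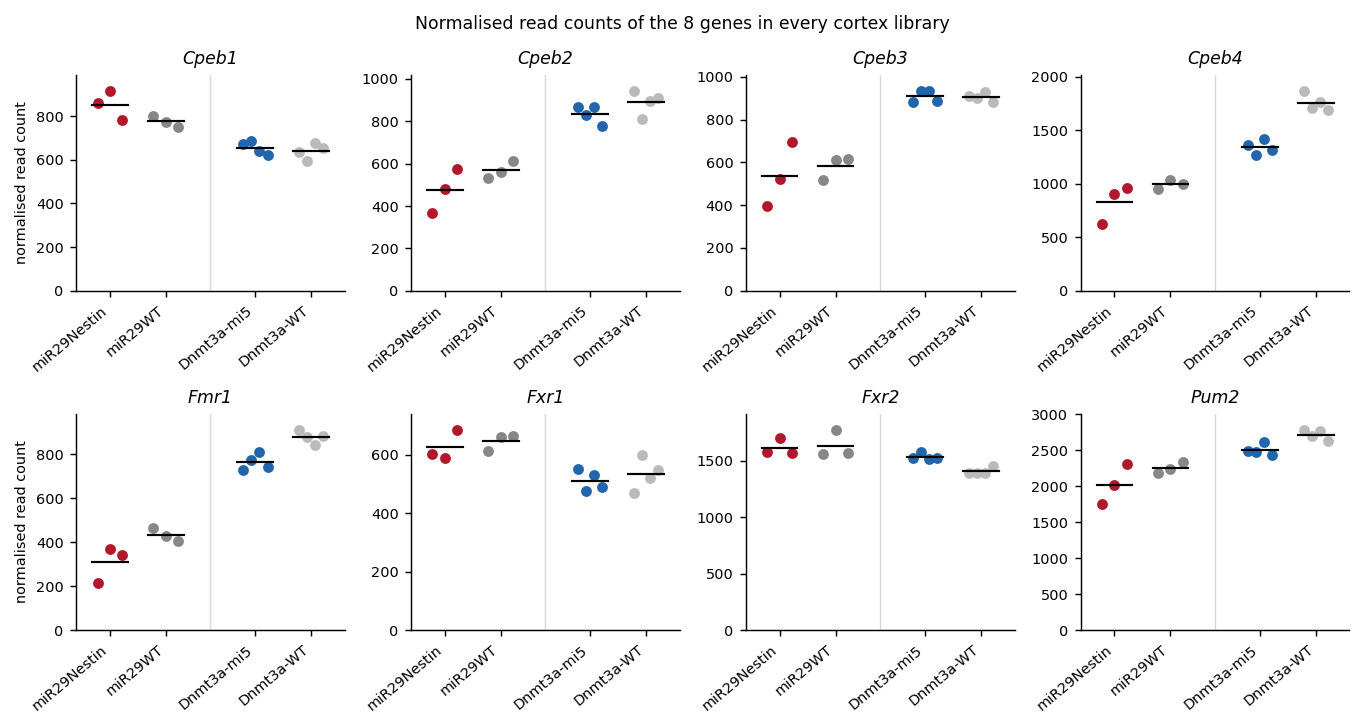
Normalised read counts (y axes, from 0) of the 8 genes in every library of the 4 groups (x axes); each point is 1 library and each bar the group mean, and libraries 1 to 3 or 1 to 4 run from left to right. Counts of the 2 models come from tables normalised separately. Fmr1 lies lower in miR29Nestin and in Dnmt3a-mi5 with no overlap, Cpeb4 at 1274 to 1417 in Dnmt3a-mi5 and 1689 to 1872 in Dnmt3a-WT, and miR29Nestin library 1 is the lowest point for Cpeb2, Cpeb3, Cpeb4, Fmr1 and Pum2.

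Several of the differences in miR29Nestin were smaller without 1 library. Library 1 was the lowest of its group for 5 of the 8 genes (Cpeb2, Cpeb3, Cpeb4, Fmr1 and Pum2), and the mean deviation of the 8 genes from their group means was -0.18 there, 0.05 in library 2 and 0.12 in library 3. Among all tested genes of that library, those with a 3′ UTR of at least 3000 bases had a median deviation of -0.05 and those with one under 1000 bases of 0.03. All 5 genes that were low there except Fmr1 have a longest annotated 3′ UTR over 3000 bases. That of Pum2 may include coding bases, as stated above. It also came from the only male of the miR29Nestin mice. The part of transcript length and of sex in these values was not tested. Without library 1 the log2 difference was -0.20 for Fmr1, -0.08 for Cpeb4, -0.09 for Cpeb2, -0.06 for Pum2 and 0.05 for Cpeb3. Between libraries of the same replicate number, Fmr1 differed by -0.74, -0.14 and -0.18 for numbers 1, 2 and 3, and Cpeb4 by -0.50, -0.17 and -0.04. Cpeb2 differed by -0.39, -0.17 and -0.07, Pum2 by -0.30, -0.14 and -0.02, and Cpeb1 by 0.08, 0.20 and 0.05. These 5 genes kept 1 sign in all 3 pairs, although the groups overlapped for all but Fmr1, and the pair of number 1 had the largest difference for all but Cpeb1. By Y-linked genes, number 3 set a female mutant against a male wild type, while numbers 1 and 2 each set mice of 1 sex together. Cpeb3 differed by -0.28, -0.17 and 0.14. Between males Fmr1 differed by -0.67 and between females by -0.19, so it was lower in the mutants within each sex. There was 1 mutant male only, which gave library 1, and 1 wild-type female only.

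**Figure D2:**
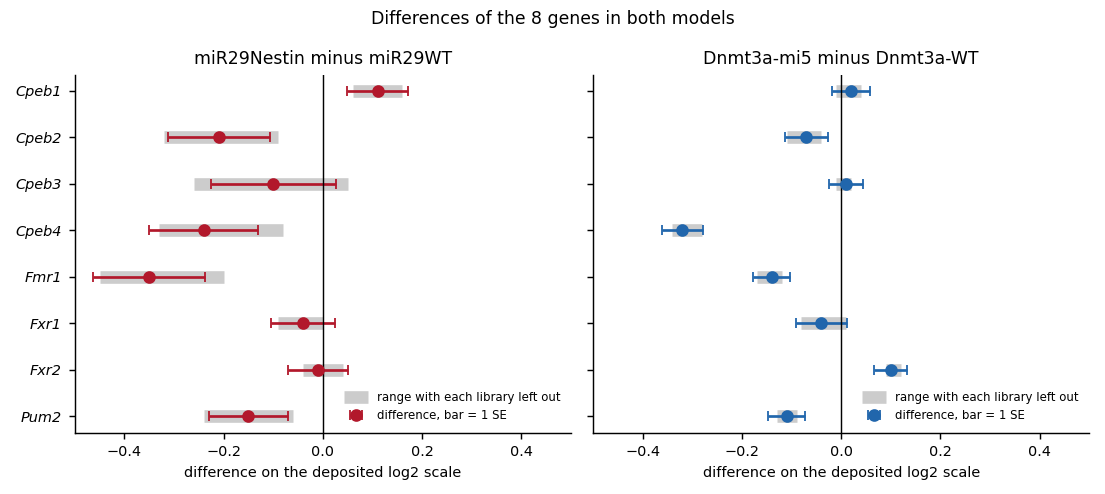
Log2 differences of the 8 genes (points; bars, 1 SE) in miR29Nestin minus miR29WT (left) and Dnmt3a-mi5 minus Dnmt3a-WT (right), with the range when each library is left out in turn (grey). The grey range of Cpeb4 runs from -0.33 to -0.08 in the miR29 model and from -0.34 to -0.28 in the Dnmt3a model.

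Calls were made with limma over all tested genes at a Benjamini-Hochberg adjusted p under 0.05, and the members' counts are set beside the share of all genes called, from which nothing is read since the same contrasts chose the members. In the miR29 model 0 of the 8 genes were called, where 2289 of 12014 genes tested (19.1%) were, and 1 of the 8 (Fmr1) passed an unadjusted p under 0.05, which 33.0% of all genes did. With pairs of equal replicate number as a block, 3 of the 8 (Cpeb2, Cpeb4 and Fmr1) were called, all lower, beside 25.3% of all genes. With sex as a term 2 were called (Cpeb4 and Fmr1), beside 20.8% of all genes. Without miR29Nestin library 3 it was 4 (Cpeb2, Cpeb4, Fmr1 and Pum2), beside 19.3%, and without library 1 it was 0, beside 16.3%. Without overlap and lower was 1 of the 8, beside 18.7% of all genes, and without overlap and higher 0, beside 18.6%. In the Dnmt3a model 1 of the 8 genes was called (Cpeb4, lower), beside 13 of 10670 genes (0.122%), and 4 of the 8 passed an unadjusted p under 0.05, beside 14.7% of all genes. The groups did not overlap for 3 of the 8 that were lower, beside 6.67% of all genes, and for 1 that was higher, beside 5.33%. The call of Cpeb4 was kept without Dnmt3a-WT library 2 and lost without any other library, where 1 to 6 genes of the whole table were called. The median difference of the 8 genes was -0.13 in the miR29 model, where that of all tested genes was -0.01, and -0.05 in the Dnmt3a model, where it was 0.00.

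Per length of the longest annotated transcript, Fxr2 and Pum2 were the most abundant of the 8 genes in all 4 groups by mean level and Cpeb2 the least. In the miR29 table Fxr2 stood at 547 ± 23.9 counts per kb in miR29Nestin and 553 ± 41.3 in miR29WT (SD, n = 3 each), above Pum2 at 321 ± 44.2 in miR29Nestin and 358 ± 11.7 in miR29WT. Cpeb1, Fxr1 and Cpeb4 followed in that order. In miR29WT these steps exceeded the range of the libraries, while Cpeb3 at 98.5 ± 9.47 and Fmr1 at 98.0 ± 6.42 could not be told apart. In miR29Nestin the ranges of Cpeb3, Fmr1 and Cpeb2 overlapped, at 67.3 to 118, 48.9 to 84.2 and 52.1 to 81.5, and so did those of Pum2 at 278 to 366 and Cpeb1 at 251 to 295. In the Dnmt3a table Cpeb4 came next after Fxr2 and Pum2, at 213 ± 9.72 in Dnmt3a-mi5 and 279 ± 13.1 in Dnmt3a-WT (SD, n = 4 each). Its range overlapped that of Cpeb1 in Dnmt3a-mi5, at 202 to 225 for Cpeb4 and 199 to 220.3 for Cpeb1, and lay above it in Dnmt3a-WT, at 268 to 297 for Cpeb4 and 191 to 218 for Cpeb1. Below it Cpeb1, Fmr1 and Fxr1 could not be told apart in Dnmt3a-WT, where their ranges were 191 to 218, 192 to 207 and 156 to 199. The transcript in use may be shorter than the longest annotated one, which would raise a gene's level per kb.

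**Figure D3:**
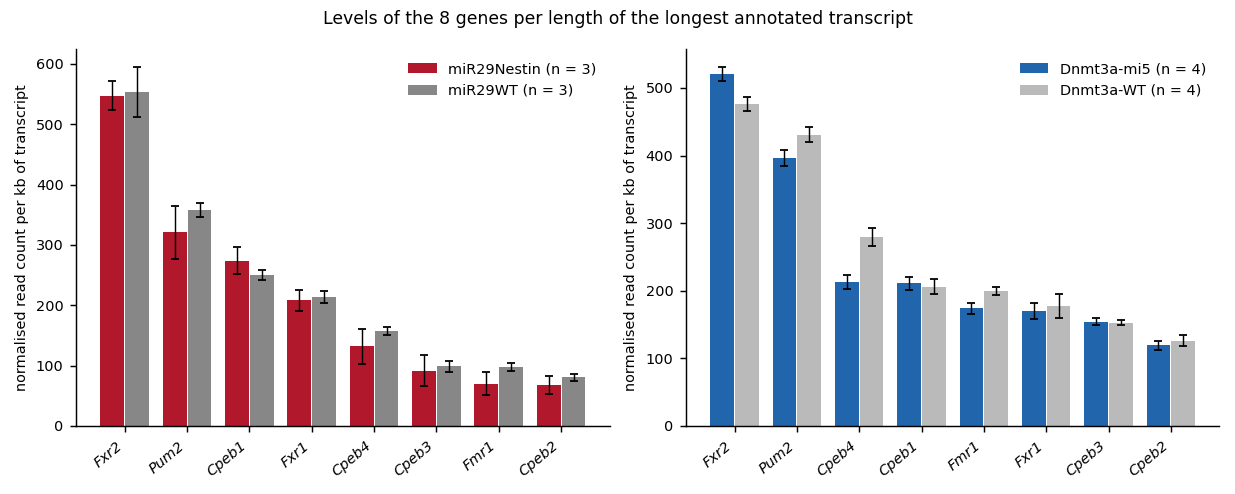
Mean normalised count per kb of the longest annotated transcript (bars; error bars, SD over libraries) for the 8 genes in the miR29 table (left) and the Dnmt3a table (right), in the order of the wild-type levels. Fxr2 and Pum2 are highest in all 4 groups, and the bar of Cpeb4 stands at 213 in Dnmt3a-mi5 and 279 in Dnmt3a-WT.

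Within each family the balance of the members was also described, as shares of the family's summed count per kb. Cpeb4 made up 30.6 ± 1.2% of the CPEB sum in Dnmt3a-mi5 and 36.5 ± 1.0% in Dnmt3a-WT (SD, n = 4 each), with ranges of 28.9 to 31.6% in Dnmt3a-mi5 and 35.4 to 37.6% in Dnmt3a-WT. The whole CPEB sum was 697 ± 19.2 in Dnmt3a-mi5 and 765 ± 27.2 in Dnmt3a-WT, again without overlap. The whole FMRP family sum overlapped, at 864 ± 10.2 in Dnmt3a-mi5 and 853 ± 20.9 in Dnmt3a-WT, while its makeup differed. Fmr1 made up 20.1 ± 0.8% of it in Dnmt3a-mi5 and 23.4 ± 0.9% in Dnmt3a-WT, and Fxr2 made up 60.2 ± 1.3% in Dnmt3a-mi5 and 55.8 ± 1.1% in Dnmt3a-WT. In the miR29 table Fmr1 made up 8.4 ± 1.9% in miR29Nestin and 11.4 ± 1.1% in miR29WT (SD, n = 3 each), without overlap, and the family sum was 825 ± 36.6 in miR29Nestin and 865 ± 44.4 in miR29WT. The CPEB sum was 564 ± 60.8 in miR29Nestin and 587 ± 12.5 in miR29WT, and the share of Cpeb4 was 23.1 ± 2.8% in miR29Nestin and 26.9 ± 0.6% in miR29WT, also without overlap.

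Genes that work with these proteins were taken from 6 lists of 120 genes, none of them among the 8, of which 112 were tested in the miR29 table and 110 in the Dnmt3a table. In miR29Nestin 14 of the 112 fell and 2 rose, which is 14.3% called, beside 19.1% of all genes, and their median log2 difference was -0.07. With the replicate block 25 fell and 7 rose, which is 28.6% called, beside 25.3% of all genes, so the listed share was below that of all genes without the block and above it with the block. Of 26 mRNAs reported as bound or regulated by proteins of these families, Pumilio proteins included, 7 fell and 0 rose in miR29Nestin. The postsynaptic scaffold genes Dlg4 and Shank1 were among them. Dlg4 had 8603 to 9168 counts in miR29Nestin and 10817 to 11575 in miR29WT, a log2 difference of -0.33 (SE 0.05, limma adjusted p = 6.83e-04). Shank1 had 4849 to 6033 counts in miR29Nestin and 6773 to 7241 in miR29WT, a log2 difference of -0.37 (SE 0.07, limma adjusted p = 0.00408). The postsynaptic scaffold gene Dlgap4 (-0.32, SE 0.06, limma adjusted p = 0.00506) and the Arf GTPase-activating gene Agap2 (-0.29, SE 0.05, limma adjusted p = 0.00228) fell as well, and the other 3 were Map1b, Kcnd2 and Grin2a. Each of these 7 is expressed in neurons. The neuronal marker sum was also lower in miR29Nestin, with 3 of its 6 markers called lower and 1 higher. Its part in these 7 differences was not tested.

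Among 18 FMRP partner proteins, Stau2, a dendritic mRNA transport protein, fell in miR29Nestin (log2 difference -0.25, SE 0.05, limma adjusted p = 0.00723), and so did Ybx1 (-0.23, SE 0.07, limma adjusted p = 0.0382), a component of mRNA particles. In the Pumilio, Nanos and CCR4-NOT list 10 of 13 genes were tested. There the deadenylase subunits Cnot9 (0.28, SE 0.06, limma adjusted p = 0.00969) and Cnot3 (0.25, SE 0.06, limma adjusted p = 0.0204) rose. Of 25 tested genes of cap binding and mTORC1 signalling, Eif4g2 (-0.17, limma adjusted p = 0.0374) and Eif4a2 (-0.13, limma adjusted p = 0.048) fell. Of 15 tested neuronal RNA-binding protein genes outside the families, Celf3 (-0.35, limma adjusted p = 0.00107) and Celf5 (-0.26, limma adjusted p = 0.0135) fell. Of 18 tested CPEB partners and poly(A) enzymes, limma called 0, and 4 had an unadjusted p under 0.05, beside 33.0% of all genes. Of the genes named from these lists in miR29Nestin, Stau2, Cnot9, Celf3, Dlg4, Shank1, Dlgap4, Agap2 and Kcnd2 were called under all 16 alternatives. The call of Eif4a2 was lost under 10 of 16 (limma adjusted p 0.0328 to 0.174), that of Eif4g2 under 7 (0.0144 to 0.111) and that of Ybx1 under 5 (0.00596 to 0.153). It was lost under 2 for Cnot3 and Map1b, 1 for Celf5, and 5 of 15 for Grin2a.

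In Dnmt3a-mi5, limma called 0 of the 110 listed genes, and 17 of them (beside the 14.7% of all genes) had an unadjusted p under 0.05; no other tool was run. The median log2 difference of the 110 was -0.01. The CPEB scaffold gene Sympk had 1701 to 1745 counts in Dnmt3a-mi5 and 1553 to 1614 in Dnmt3a-WT, a log2 difference of 0.11 (SE 0.03, limma adjusted p = 0.187). The deadenylase gene Cnot7 had 712 to 816 counts in Dnmt3a-mi5 and 854 to 930.1 in Dnmt3a-WT, a log2 difference of -0.13 (SE 0.04, limma adjusted p = 0.205). Purb, a partner of FMRP in mRNA particles, had 8210 to 8605 counts in Dnmt3a-mi5 and 8962 to 10890.3 in Dnmt3a-WT, a log2 difference of -0.22 (SE 0.06, limma adjusted p = 0.159). The groups did not overlap for these 3 genes, but none passed the adjusted threshold; Purb passed without Dnmt3a-WT library 2, with a log2 difference of -0.28.

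**Figure D4:**
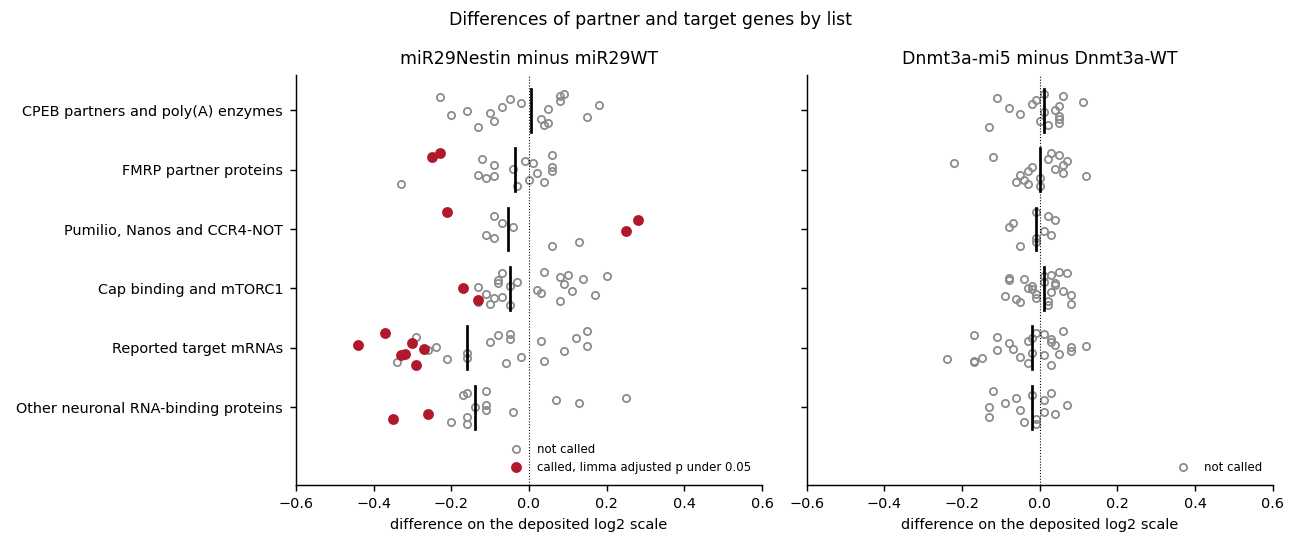
Log2 differences (x axis) of the tested genes of 6 lists (y axis) in miR29Nestin minus miR29WT (left) and Dnmt3a-mi5 minus Dnmt3a-WT (right); filled points were called by limma at an adjusted p under 0.05, open points were not, and black bars are list medians. In the miR29 model 16 of 112 genes are filled, 7 of them among the reported target mRNAs, and in the Dnmt3a model 0 of 110.

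The genes most like Fmr1 were sought over all 14 libraries, by the root mean square of the differences between log2 deviations from each table's mean, among 10609 genes tested in both tables. The nearest were Pter at 0.053, Adam10 at 0.061 and Tmed7 at 0.061, where the median gene lay at 0.181 and the deviations of Fmr1 itself had a root mean square of 0.169. Adam10, a sheddase of neuronal surface proteins, differed by -0.32 (SE 0.10) in the miR29 model and -0.10 (SE 0.03) in the Dnmt3a model. Tmed7, a cargo receptor of the secretory pathway, differed by -0.25 (SE 0.09) in the miR29 model and -0.12 (SE 0.04) in the Dnmt3a model. For Pter the differences were -0.36 (SE 0.11) in the miR29 model and -0.20 (SE 0.04) in the Dnmt3a model. These 3 genes were picked for their likeness to Fmr1, so their differences are descriptions too.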

How the data were processed

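Polyadenylated RNA of 14 mouse cortices was sequenced from both ends over 50 cycles in stranded libraries, per the labels' protocols. The miR29 mice were extracted with RNeasy and prepared with TruSeq, and the Dnmt3a mice with Direct-zol and KAPA, so the models were kept apart. The tools cutadapt, STAR, Salmon and DESeq2 appear without versions in the submitters' processing notes, and the builds hg19 and mm9 appear without a role. The authors deposited 1 table per model of log2 values from the variance-stabilising transformation of DESeq2, per the file names and headers. The members and the 6 lists were chosen with earlier results of these data known.

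The transformation was inverted exactly, with each table's value for 0 reads (6.5861 and 7.6295), to recover normalised counts. In the miR29 libraries 69.7 to 80.7% of values under 30 reads were whole within 0.05 reads, so no count model was used. In the table of the Dnmt3a mice, 2 sets of 4 libraries (mutants 1 and 2 with wild types 1 and 2, and the rest) had equal means for every gene within 5.5e-09 (next such pair of sets, 0.538), so an additive effect had been removed. Its counts are approximate, and the set entered its fit as a term. Its columns repeat replicate names, so its libraries are numbered by column order only.

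limma 3.58.1 (R 4.3.3; empirical Bayes with trend; Benjamini-Hochberg) was fitted to each whole table, for genes whose mean lay at least 1 log2 unit above the lowest value (48.0 and 80.1 normalised counts), and tested on simulated data. The miR29 labels give replicate numbers and do not say that equal numbers are pairs, so the replicate block rests on these numbers only. Residuals of equal numbers correlated at 0.335, 0.204 and 0.186, and those of unequal numbers at -0.327 to 0.178. Nothing says that mice were from separate litters, so p-values measure the spread between these samples. Of the list genes, those named were up to 4 called per list whose groups did not overlap, by smallest p, or else up to 2 that were not called. Map1b, Kcnd2, Grin2a and Bmpr2 were named after their values were seen. Symbols were matched to GENCODE M21 (GRCm38): 23793 directly, 290 by synonym and 361 not at all. miRNA sequences are from RefSeq. Protein sequences were not used here, and 1 listed gene is not reported here by name. Alternatives changed the filter, variance prior, scale, scaling, block, sex term, set term and libraries.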

Additional observations from a re-analysis of the deposited data

Results flagged for a closer look

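In 3 groups of 4 libraries, 1 library lay far from the other 3 on the deposited log2 scale. Of 62 groups of named genes tested this way, chance flags about 1 in 20. Cnot7 was 10.06 in Dnmt3a-mi5 library 1 and 10.18 to 10.20 in libraries 2 to 4 of that group. Fxr2 stood at 10.83 in Dnmt3a-WT library 4, and at 10.78 to 10.79 in the other Dnmt3a-WT libraries. That library was the Dnmt3a-WT library nearest to the Dnmt3a-mi5 values of Fxr2, which were all higher. Sympk stood at 10.96 in the same library, and at 10.91 to 10.92 in the other Dnmt3a-WT libraries.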

How the results depend on the processing

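Of 264 values of the 8 genes under alternatives, 258 moved by less than the spread between libraries and 6 by more. On the scale of recovered counts with a pseudocount of 1 or of 10, the Dnmt3a-mi5 difference was -0.39 for Cpeb4, -0.20 for Fmr1 and 0.13 for Fxr2. The sign changed in 8 values, none above 0.05 in size, for Fxr2 and Cpeb3 in miR29Nestin and for Cpeb1, Fxr1 and Cpeb3 in Dnmt3a-mi5. In the miR29 model 2289 genes were called, 1384 to 2313 with each library left out (1474 without miR29Nestin library 2, 1384 without miR29WT library 2, 1419 without miR29WT library 3) and 1954 to 3037 otherwise. Of listed genes 16 were called, 9 to 23 with each library left out (9 without miR29WT library 2, 10 without miR29WT library 3), 32 with the replicate block and 28 with sex as a term. In the Dnmt3a model 13 genes were called, 1 to 82 with each library left out (82 without Dnmt3a-WT library 2, 1 to 6 without any other) and 85 without the set term. Of listed genes 0 were called, 0 to 3 with each library left out and 1 without the set term. Fmr1 was also called in the miR29 model with no filter, with the stricter filter, with libraries centred on the median, with quantile normalisation and without miR29Nestin library 2. The cause of these changes was not tested. No paired analysis was possible in the Dnmt3a model because its columns repeat replicate names. The depth of the Dnmt3a libraries is unknown.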
